A study of Rattus norvegicus with 9 samples.

Results

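Cardiac fibroblasts cultured from adult rats were compared with those cultured from rat fetuses over all genes. The 6 libraries were the 3 labelled adult and the 3 labelled fetal among the 9 of the series, and the remaining 3, from neonatal cells (postnatal day 1), entered the model for its estimate of the spread. The adult cells came from Sprague Dawley rats of 7 weeks and the fetal cells from Sprague Dawley rats at embryonic day 18. No genetic change or drug was labelled for either group, and cells of both ages were grown to confluency in flasks, in DMEM with fetal bovine serum, ascorbic acid, penicillin and streptomycin, and lysed in TRIzol. The labels describe primary cells and name no sorting, so other cells of the heart may have been carried over. They do not say how many animals, of which sex, gave each flask, or whether the 3 libraries of an age came from separate isolations. P-values below therefore measure the spread between these libraries, which may be technical.

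Cardiac fibroblasts are the connective-tissue cells of the heart. They secrete and remodel the collagen-rich matrix that holds the muscle cells together, and after injury or in culture they can take on the contractile, actin-rich state called the myofibroblast. In the fetus they arise mainly from the epicardium, the outer cell layer of the heart, and multiply while the chambers grow. In the adult heart they divide little, and resident macrophages lie among them.

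Abundances are counts per 1000000 counts (CPM) after TMM scaling, a correction for differences in library composition. They are not divided by gene length, so values are compared between libraries and not between genes. Where a gene is called the most abundant, it had the highest mean CPM over the 6 libraries. This ranking favours long genes and is not one of transcript number. A gene is said to have risen or fallen in the adult cells when edgeR's quasi-likelihood test gave a Benjamini-Hochberg adjusted p under 0.05. The libraries of the 2 ages are said not to overlap when every adult value lay above, or every adult value below, every fetal value. Where every library of an age held at most 3 counts of a gene, the fold change was computed against that floor and is written as "at least", a limit that covers counting error only. Coordinates are those of the rn6 annotation in the deposited table.

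The adult libraries held 13392825 to 13810825 assigned counts and the fetal libraries 16277129 to 22141173. Age separated them: the first principal component of the 6 libraries carried 90.4% of the variance. Fetal replicate 3 stood apart within its age, at a distance of 77.5 and 77.1 on the log2 CPM scale from replicates 1 and 2, which were 24.7 apart. It lay at least 4-fold above their mean for 201 genes and at least 4-fold below for 133. Among the adult libraries, 40.0 to 56.3 apart, replicate 1 was the farthest from the other two. The counts over all genes are therefore given with and without fetal replicate 3, as are the lists and genes for which a second value is stated. A list or gene without a second value may have moved too.

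Of 17337 genes in the table, 11337 passed the filter on low counts. Of these, 7987 (70.5%) differed between the ages, 3957 (34.9%) risen and 4030 (35.5%) fallen in the adult cells. For 3675 genes (32.4%) the difference also reached 1 on the log2 scale. Adult and fetal values did not overlap for 8136 genes (71.8%). Without fetal replicate 3, 8616 of 11519 tested genes (74.8%) differed, 4298 risen (37.3%) and 4318 fallen (37.5%). Of the 7987 genes, 7747 kept their call and direction, 240 were no longer called and none changed direction. These shares are the background for the counts below: about 1 gene in 3 went each way, and a list with such shares is not remarkable.

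**Figure D1:**
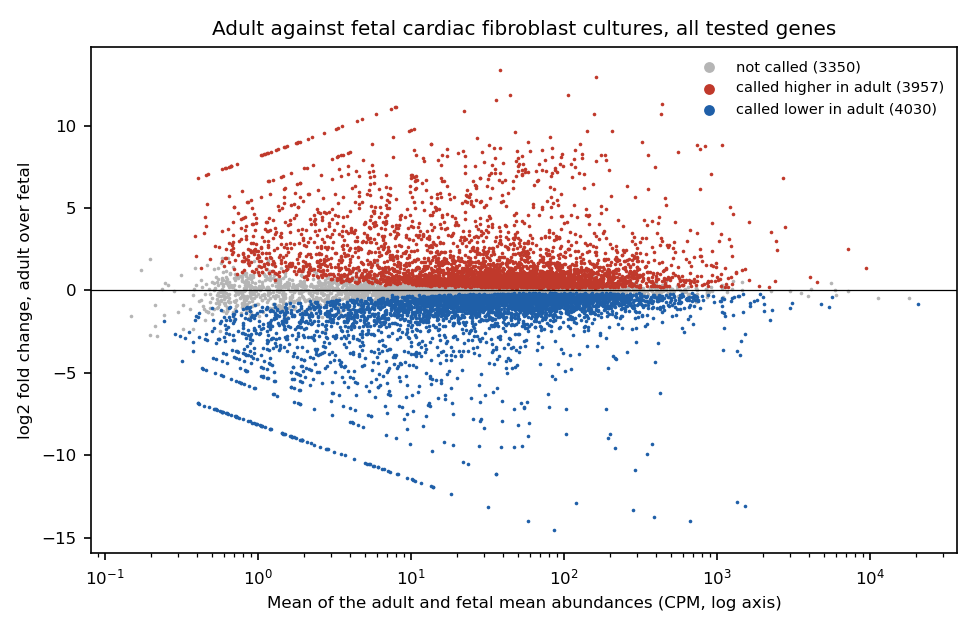
Each point is 1 of the 11337 tested genes, with the mean of the adult and fetal mean abundances (CPM, log axis) against the log2 fold change of adult over fetal cultures. Red points are the 3957 genes called higher and blue points the 4030 called lower in the adult cells. The straight lines of points at low abundance are genes with few or no counts in 1 age, whose fitted fold change depends on edgeR's default prior count.

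The differences were large. Among called genes the median size was 0.92 on the log2 scale, and 679 genes rose and 535 fell at least 8-fold. At least 128-fold differences were fitted for 162 risen and 152 fallen genes. The called genes made up most of each transcriptome: genes that rose took 48.8% to 52.8% of the counts in the adult libraries against 22.9% to 23.9% in the fetal libraries. Genes that fell took 23.3% to 25.2% of the adult and 47.8% to 49.3% of the fetal counts. At the extreme, 130 tested genes lay at or under the floor in every fetal library, 25 of them with at least 10 CPM in the adult cells, and 246 lay there in every adult library, 53 of them with at least 10 CPM in the fetal cells.

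Some fibroblast genes were abundant at both ages and others were low at 1 of them. Col1a1, which encodes the main chain of type I collagen, stood at 11890, 15680 and 17310 CPM in the 3 adult libraries and at 32980, 30300 and 14790 CPM in the 3 fetal libraries. Fetal replicate 3 lay among the adult values, so that the ages overlapped. Pdgfra, a receptor that marks fibroblasts, had 432 ± 216 CPM in the adult and 122 ± 25.6 CPM in the fetal libraries (SD, n = 3 each), and Vim, a mesenchymal filament, 5307 and 3671 CPM on average. Dpt and Dpep1 were low in the fetal cells (1.48 and 3.31 CPM), Meox1, Cd34 and Wif1 were low in the adult cells (0.547, 1.91 and 1.88 CPM), and Cd248 had no count at either age. Markers of other cell types differed between the ages as well. The 19 tested cardiomyocyte markers fell without exception, from a sum of 11430 to 15880 CPM in the fetal to 314 to 327 CPM in the adult libraries, and most of the adult sum was Tnnt2 (309.5 CPM). Of 20 macrophage markers, 19 were tested and each rose, from 19 to 87.9 to 5271 to 7277 CPM, while Marco had no count at either age and Cd163 none in fetal cells. The summed endothelial markers were 1050 to 1209 CPM in adult and 172 to 260.1 CPM in fetal libraries, with 6 of 13 tested markers risen and 3 fallen. Most of that sum was Eng (1006 against 195 CPM). The largest increase in the list was that of Tie1 (70.3 against 0.421 CPM), and Pecam1 (7.16 against 0.635 CPM) and Cdh5 (4.23 against 0.255 CPM) rose at lower levels. Mural (pericyte and smooth muscle) markers summed to 339 to 724 CPM in adult and 2449 to 3625 CPM in fetal cells. Of 11 tested mural markers, 2 rose and 6 fell, with log2 fold changes from -6.19 to 3.48. In bulk cultures, fewer cells of a type and less RNA per cell cannot be told apart.

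**Figure D2:**
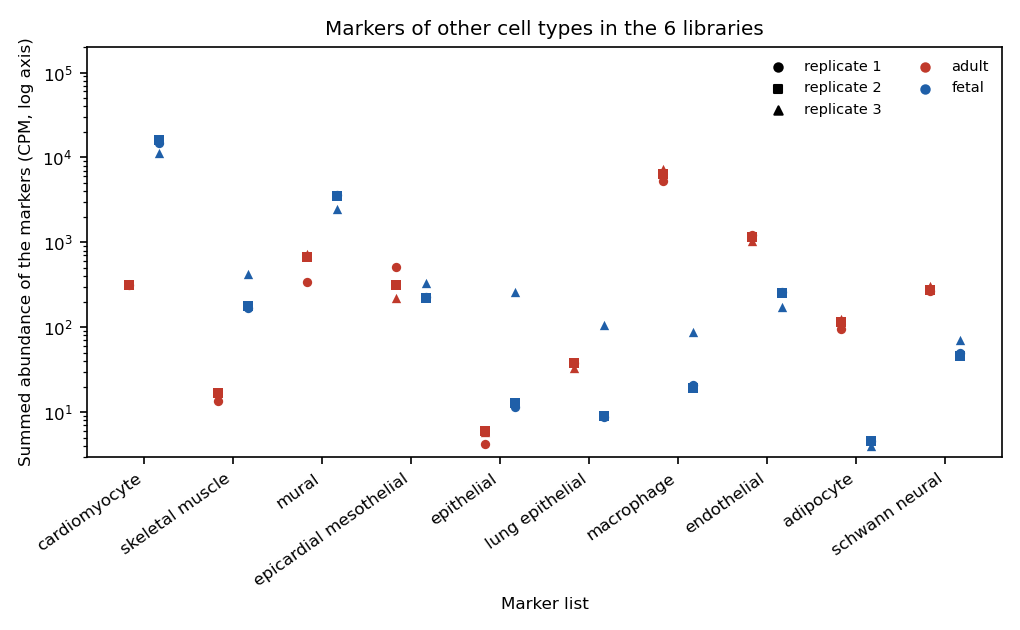
Summed abundance of 10 marker lists (CPM, log axis) in each of the 6 libraries, with adult libraries in red, fetal libraries in blue and 1 symbol per replicate. The cardiomyocyte sums lie at 11430 to 15880 CPM in fetal and 314 to 327 CPM in adult libraries and the macrophage sums at 19 to 87.9 and 5271 to 7277 CPM. Fetal replicate 3 stands above the other fetal libraries for the epithelial, lung epithelial, skeletal muscle and macrophage lists.

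Markers of several other cell types were higher in fetal replicate 3 than in its partners. The epithelial markers, such as the keratins and cadherins of covering and lining cells, summed to 11.6, 12.7 and 259.8 CPM in fetal replicates 1, 2 and 3. Lung epithelial markers summed to 8.85, 8.95 and 106 CPM, skeletal muscle markers to 169, 178 and 425 CPM and macrophage markers to 20.6, 19 and 87.9 CPM in the same order. In each of these lists replicate 3 was the highest fetal library. Of the 14 lung epithelial markers in the table, Sftpa1, Sftpb, Napsa and Aqp5 had no count in any fetal library and the other 10 had some. Cdh1, the epithelial cadherin, stood at 1.30, 2.34 and 113 CPM and Krt14, a keratin of basal epithelia, at 3.08, 3.48 and 55.6 CPM in fetal replicates 1, 2 and 3. Both fell in the adult cells (-5.28 and -7.30 on the log2 scale, edgeR adjusted p = 0.0217 and 0.00358), and without replicate 3 the log2 fold changes were -0.89 (adjusted p = 0.0583) and -4.65 (adjusted p = 8.49e-06). The part of these cells in other results was not tested beyond leaving the library out.

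The largest increases in the adult cells were in genes of immunity and acute inflammation. The macrophage marker sum rose with them, from 19 to 87.9 CPM in fetal to 5271 to 7277 CPM in adult libraries, and its part was not tested. Serpina3n, a secreted inhibitor of serine proteases (chromosome 6, 128073344 to 128080878), had 919, 885 and 804 CPM in the adult and 0.324, 0.485 and 0.159 CPM in the fetal libraries (log2 11.32, SE 0.228, edgeR adjusted p = 1.00e-09). Fcgr2b, an inhibitory receptor for antibodies (chromosome 13, 89329304 to 89343892), stood at 348, 309.5 and 280.3 CPM in adult and at 0, 0 and 0.584 CPM in fetal libraries (log2 10.68, SE 0.462, edgeR adjusted p = 1.63e-07), its only fetal counts being in replicate 3. Ccl12, a chemokine that attracts monocytes, showed the same layout with 1016, 851 and 718 and 0.0540, 0.0441 and 1.49 CPM (log2 10.72, SE 0.613, edgeR adjusted p = 7.91e-07). Without replicate 3 the log2 fold changes of Fcgr2b and Ccl12 were 15.38 and 13.91, on at most 1 count in each remaining fetal library. Pla2g2a, a secreted phospholipase of the acute-phase response (chromosome 5, 157282718 to 157285294), had 421, 152 and 66.9 CPM in the adult libraries and lay under the floor in the fetal ones, at least 1411-fold higher in adult cells (edgeR adjusted p = 1.58e-05). Its adult values spread 6.29-fold, with replicate 1 the highest. Asgr2 and Clec10a, lectin receptors of macrophages, were at least 505-fold and at least 2142-fold higher, and the chemokines Ccl22 and Ccl4 at least 590.3-fold and at least 293-fold higher. Ccl17, a chemokine for T cells, was at least 473-fold higher (98.9, 63.7 and 52.1 CPM in the adult libraries). C4b, a complement component whose sequence nearly equals that of C4a, so that the split between them is uncertain, was at least 138-fold higher, again with replicate 1 the highest (43.3, 12.6 and 6.81 CPM).

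The largest decreases were in genes of heart muscle. Nppa encodes the atrial natriuretic peptide (chromosome 5, 164808407 to 164809716) and stood at 3683, 3831 and 1606 CPM in the fetal and 0.459, 0 and 0.599 CPM in the adult libraries (log2 -13.06, SE 0.615, edgeR adjusted p = 2.57e-07). Actc1, the cardiac actin, had 2678, 2887 and 2574 against 0.383, 0.144 and 0.599 CPM (log2 -12.80, SE 0.238, edgeR adjusted p = 6.94e-10). Myl2, a ventricular myosin light chain, was at least 2539-fold lower in the adult cells, with 596, 661 and 447 CPM in the fetal libraries. Tnni1, the fetal troponin I, was at least 1069-fold lower (227, 231 and 259 CPM). Smpx, a small muscle protein, and Alpk3, a kinase needed for cardiac muscle formation, had no count in any adult library and were at least 287-fold and at least 164-fold lower. Myh7 and Myh6, the cardiac myosin heavy chains, were at least 5981-fold and at least 3465-fold lower, and Csrp3 and Sh3bgr, muscle proteins, at least 522-fold and at least 771-fold lower. For each of these genes the lowest fetal library exceeded the highest adult library, as the rule for naming them required. Fetal replicate 3 was the lowest of its age for Nppa, Actc1 and Myl2 and the highest for Tnni1, Smpx and Alpk3. All but Smpx, Alpk3 and Sh3bgr belong to the cardiomyocyte marker list described above, and the part of heart muscle cells in these differences was not tested.

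Among genes well expressed at both ages (mean of at least 10 CPM in each), the most increased was C1s, a protease of the complement cascade, with 2755, 1572 and 1122 CPM in the adult and 14.1, 15.3 and 10.8 CPM in the fetal libraries (log2 7.08, SE 0.371, edgeR adjusted p = 4.70e-07). Gpnmb, a glycoprotein of lysosome-rich cells, followed with 5436, 5431 and 5256 against 46.7, 45.8 and 50.3 CPM (log2 6.82, SE 0.0929, edgeR adjusted p = 4.60e-10). Its replicates were nearly equal within each age. Ccl2, Cd14 and Lcp1, known from monocytes and macrophages, rose by 6.15, 5.69 and 5.62 on the log2 scale. Each was higher in fetal replicate 3 than in its partners, for instance Lcp1 with 8.31, 9.43 and 36.8 CPM, and without it the log2 fold changes were 6.98, 6.10 and 6.64. Ptx3, a soluble pattern-recognition protein, had 1613, 718 and 398 CPM in adult and 26.3, 26.8 and 22.5 CPM in fetal libraries, and its adult replicate 1 was the highest. The most decreased were Actg2, Des, Col11a1, Nid2, Gja1 and Adamts12, with log2 fold changes of -6.19, -4.69, -4.34, -4.16, -4.08 and -3.99. Gja1 encodes connexin 43, the main gap junction protein of the heart, and stood at 33.4, 21.6 and 17.0 CPM in adult and 402, 405 and 409 CPM in fetal libraries (log2 -4.08, SE 0.212, edgeR adjusted p = 3.31e-07). Des, the intermediate filament of muscle, had 16.5, 14.7 and 12.6 against 389, 404 and 338 CPM.

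**Figure D3:**
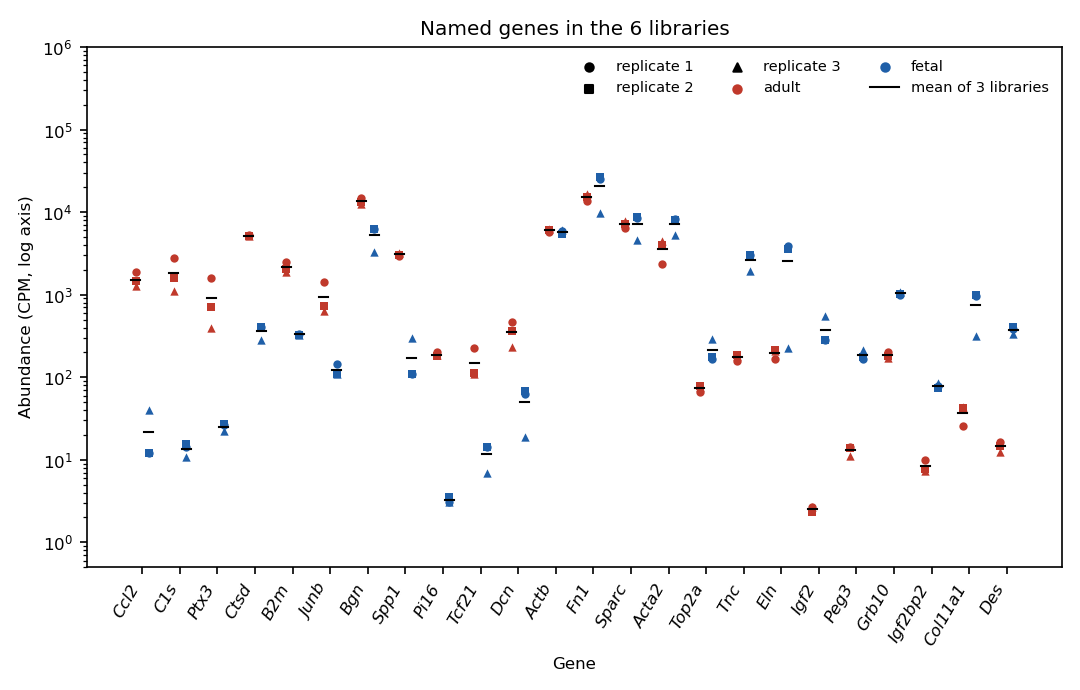
Abundance (CPM, log axis) of 24 named genes in each of the 6 libraries, adult in red and fetal in blue, with 1 symbol per replicate and a bar at the mean. Immune, lysosomal and adult fibroblast genes are on the left and genes lower in adult cells on the right. Between them are genes that did not pass the test with all libraries. For Eln, Fn1 and Col11a1 the triangle of fetal replicate 3 lies well below the other fetal libraries.

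The matrix genes did not move as a block. Among fibrillar collagens, 1 of 10 tested genes rose and 6 fell (median log2 -0.77), and 0 rose and 7 fell without fetal replicate 3. Col1a1 fell by 0.80 on the log2 scale (edgeR adjusted p = 0.0252), a call lost when adult replicate 1 or 2 or fetal replicate 1 or 2 was left out (adjusted p = 0.0573 to 0.0920), with the 6 libraries fitted alone (adjusted p = 0.0618) and with a trend on gene length removed (adjusted p = 0.284), while Col3a1 (-0.45) did not pass the test (adjusted p = 0.143). Without fetal replicate 3 their log2 fold changes were -1.08 and -0.74, with adjusted p = 7.47e-05 and 2.05e-05. Other chains differed in size and direction. Col5a2 had a log2 fold change of -0.74, Col5a3 -0.27, which did not pass the test, and Col11a2 rose by 0.47. The call of Col11a2 was lost without any 1 of the fetal libraries (adjusted p = 0.0536 without replicate 3) and without adult replicate 2 or 3. It was also lost with the 6 libraries fitted alone, without the filter, with a replicate block and with library size or upper quartile scaling. Col11a1, a collagen that nucleates thin fibrils in developing tissue (chromosome 2, 216863428 to 217056523), stood at 25.5, 42.1 and 43.9 CPM in adult and 953, 983 and 318 CPM in fetal libraries (log2 -4.34, SE 0.435, edgeR adjusted p = 2.49e-05). Replicate 3 was again the lowest fetal library and the ages did not overlap. Col2a1, the cartilage collagen, had no adult count and was at least 73.7-fold lower, with 5.29, 5.82 and 38.3 CPM in the fetal libraries. Of basement membrane genes, 2 of 14 tested genes rose and 10 fell (median log2 -1.24), and 2 rose and 11 fell without fetal replicate 3. With the trend on gene length removed, the median was -0.30 for fibrillar collagens and -0.66 for basement membrane genes. Nid2 (nidogen, a linker of laminin and collagen IV) had 25.9, 23.7 and 19.8 against 417, 403 and 419.9 CPM (log2 -4.16, SE 0.103, edgeR adjusted p = 3.43e-09), without overlap. Col4a1, the most abundant member, did not pass the test with all libraries (-0.30, adjusted p = 0.187) and fell without fetal replicate 3 (-0.53, adjusted p = 4.74e-06). Col15a1 rose by 1.64.

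Proteoglycan and elastic fibre genes changed in both directions. In this list, 9 of 21 tested genes rose and 11 fell (median log2 -0.74). The counts were the same without fetal replicate 3, with a median of -1.05. Bgn, the small proteoglycan biglycan (chromosome X, 157319042 to 157331204), stood at 15020, 13120 and 12660 CPM in the adult and 6226, 6213 and 3290 CPM in the fetal libraries (log2 1.37, SE 0.22, edgeR adjusted p = 0.000369), and decorin (Dcn) at 470.4, 359 and 229.7 and 63.4, 67.8 and 19.1 CPM (log2 2.81, SE 0.442, edgeR adjusted p = 0.000418). Efemp1, a fibulin, rose by 4.65. On the fetal side were Acan, the large cartilage proteoglycan aggrecan, at least 475-fold lower in adult cells (113, 117 and 89.0 CPM in the fetal libraries), and fibrillin 2 (Fbn2), a microfibril protein of developing tissue, with 8.03, 3.25 and 1.05 against 187, 186 and 139 CPM (log2 -5.38, SE 0.465, edgeR adjusted p = 9.66e-06). Eln is the elastin gene, and 1 library set its spread. Its fetal values were 3831, 3529 and 226 CPM and its adult values 165, 214 and 208 CPM (log2 -3.69, SE 0.822, edgeR adjusted p = 0.00324), so that fetal replicate 3 lay next to the highest adult library. Without that replicate the log2 fold change was -4.24.

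Among matricellular proteins, which modulate cells without building fibres, 5 of 16 tested genes rose and 5 fell (median log2 -0.09), and 5 rose and 9 fell without fetal replicate 3. With all libraries these shares were near those of all genes. Osteopontin (Spp1) rose from 109, 109 and 299 CPM to 2968, 3052 and 3202 CPM (log2 4.16, SE 0.394, edgeR adjusted p = 1.74e-05), with fetal replicate 3 above its partners, and thrombospondin 2 (Thbs2) from 208, 212 and 124 to 2716, 1732 and 1411 CPM. Tenascin C (Tnc) fell from 3008, 3001 and 1924 to 157, 183 and 183 CPM (log2 -3.92, SE 0.178, edgeR adjusted p = 1.17e-07) and Wisp1, a secreted Wnt target, from 161, 155 and 173 to 3.90, 5.13 and 4.12 CPM (log2 -5.21, SE 0.1298, edgeR adjusted p = 3.46e-09). Fibronectin (Fn1) did not pass the test (-0.44, adjusted p = 0.234), and fell without fetal replicate 3 (-0.78, adjusted p = 6.16e-06). Sparc stood at 6342, 7231 and 7862 CPM in the adult and 8528, 8654 and 4586 CPM in the fetal libraries. Its log2 fold change was -0.02 with all libraries (adjusted p = 0.932) and -0.27 without fetal replicate 3.

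Enzymes that modify and cut the matrix also changed in both directions. Of the collagen-modifying genes, 8 of 22 tested genes rose and 9 fell (median log2 -0.23), and 8 rose and 12 fell without fetal replicate 3. With all libraries these shares were near those of all tested genes (34.9% risen and 35.5% fallen). The cross-linking enzyme Loxl4 fell by 2.32 on the log2 scale, its relative Lox fell by 2.04, and Loxl1 rose by 1.30. The collagen chaperone Serpinh1 (HSP47) had 1886, 1984 and 2075 CPM in adult and 4635, 4308 and 3238 CPM in fetal libraries (log2 -1.03, SE 0.129, edgeR adjusted p = 7.16e-05), with every adult library below every fetal one. Of matrix proteases and their inhibitors, 15 of 29 tested genes rose and 7 fell (median log2 0.58). Leaving out fetal replicate 3 gave 16 risen and 9 fallen. The inhibitor Timp1 rose by 2.04 and Timp3 fell by 2.45 on the log2 scale. Mmp12, the macrophage elastase (chromosome 8, 5606592 to 5616494), had 1918, 1580 and 1538 CPM in the adult and 0.162, 0.0882 and 11.7 CPM in the fetal libraries (log2 8.75, SE 1.19, edgeR adjusted p = 0.000168), nearly all of the fetal signal lying in replicate 3, where the macrophage markers were also highest (20.6, 19 and 87.9 CPM). The part of those cells in this result was not tested. Adamts12, a protease of developing connective tissue, had 20.4, 28.3 and 25.8 against 464, 507 and 209 CPM (log2 -3.99, SE 0.323, edgeR adjusted p = 6.48e-06).

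Contractile genes of myofibroblasts fell. In this list, 0 of 17 tested genes rose and 12 fell (median log2 -1.37), and 0 rose and 14 fell without fetal replicate 3. Smooth muscle actin (Acta2), the usual marker of the state, stood at 2337, 3956 and 4447 CPM in the adult and 8212, 7989 and 5348 CPM in the fetal libraries (log2 -1.005, SE 0.239, edgeR adjusted p = 0.00409), without overlap and with adult replicate 1 the lowest. Actg2, enteric smooth muscle actin, had 9.26, 13.7 and 11.3 against 950.2, 882 and 670.1 CPM (log2 -6.19, SE 0.186, edgeR adjusted p = 1.03e-08), and calponin (Cnn1) 34.3, 101 and 109 against 779, 744 and 721 CPM (log2 -3.20, SE 0.365, edgeR adjusted p = 5.59e-05). The coding sequences of Acta2 and Actg2 are closely similar, so reads may be split between them. Myh11, the smooth muscle myosin, did not pass the test (-0.61, adjusted p = 0.139). Cnn1, Actg2 and Myh11 are also mural markers, whose sum was 339 to 724 CPM in adult and 2449 to 3625 CPM in fetal cells, and the part of mural cells in the list's change was not tested.

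Genes used to identify fibroblasts rose more often than they fell: 14 of 22 tested genes rose and 6 fell (median log2 0.70). The counts were 13 and 6 without fetal replicate 3 (median 0.555). Pi16, a marker of quiescent adventitial fibroblasts (chromosome 20, 6923498 to 6932786), stood at 199, 179.7 and 184 CPM in the adult and 3.08, 3.57 and 3.08 CPM in the fetal libraries (log2 5.85, SE 0.104, edgeR adjusted p = 6.94e-10). Tcf21, a transcription factor of the epicardial lineage required for cardiac fibroblasts, had 226, 113 and 108 against 14.1, 14.4 and 6.90 CPM (log2 3.65, SE 0.359, edgeR adjusted p = 2.21e-05). Adult replicate 1 was well above the other two for Tcf21, and the 3 adult libraries were nearly equal for Pi16. Vim, the mesenchymal intermediate filament, rose by 0.53. Meox1, a transcription factor, fell by 3.76 on the log2 scale.

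Transcription factors of the heart lineage went mostly the other way. In that list, 7 of 35 tested genes rose and 23 fell (median log2 -1.07). Nkx2-5, the early cardiomyocyte factor, had no adult count and was at least 65.3-fold lower, with 16.2, 11.6 and 15.9 CPM in the fetal libraries. Myocd, a coactivator of smooth and cardiac muscle genes, stood at 0.0765, 0.217 and 0.299 against 40.5, 45.1 and 26.7 CPM (log2 -7.51, SE 0.348, edgeR adjusted p = 1.36e-07) and Tbx5, a T-box factor of the heart and limb, at 0.383, 0.433 and 0.225 against 11.7, 10.8 and 15.9 CPM (log2 -5.18, SE 0.303, edgeR adjusted p = 5.23e-07). Gata4, shared by cardiomyocytes and cardiac fibroblasts and the most abundant member, did not pass the test, with 153, 131 and 136 CPM in adult and 154, 157 and 101 CPM in fetal libraries (log2 0.03, adjusted p = 0.858). The cardiomyocyte markers move with this list (11430 to 15880 against 314 to 327 CPM) and their part was not tested. Of the Hox genes, which record position along the body axis, 8 of 24 in the table were tested, 7 fell and 1 rose (median log2 -5.88, or -3.67 with the 4 genes at the floor set to their bounds). Hoxa2, which the annotation places on several chromosomes, was at least 29.9-fold lower, with 7.34, 7.67 and 5.04 CPM in the fetal libraries. Hoxb5 was at least 18.8-fold lower in adult cells (4.70, 4.05 and 3.82 CPM in the fetal libraries) and Hoxb3 stood at 1.3, 1.16 and 1.12 against 9.72, 7.49 and 8.07 CPM (log2 -2.81, SE 0.232, edgeR adjusted p = 4.70e-06).

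Genes of cell division were lower in the adult cells. Of DNA replication genes, 0 of 36 tested genes rose and 21 fell (median log2 -0.54). Tyms, which makes thymidylate for DNA, stood at 13.6, 12.8 and 20.7 CPM in adult and 46.3, 47.5 and 43.0 CPM in fetal libraries (log2 -1.54, SE 0.157, edgeR adjusted p = 1.94e-05), and Rrm1, a subunit of ribonucleotide reductase, at 136, 143 and 169 and 233, 239 and 303 CPM (log2 -0.79, SE 0.115, edgeR adjusted p = 0.000199). Both separated the ages. Pcna, the replication clamp, had 132, 147 and 158 and 121, 121 and 140.4 CPM and did not pass the test (adjusted p = 0.0698). Without fetal replicate 3 it rose (0.26, adjusted p = 0.00663). Of mitosis genes, 0 of 31 tested genes rose and 23 fell (median log2 -0.98). Cenpf, a kinetochore protein, had 32.4, 41.2 and 43.1 CPM in adult and 104, 112 and 183 CPM in fetal libraries (log2 -1.77, SE 0.209, edgeR adjusted p = 5.99e-05), and Top2a, the topoisomerase that untangles chromosomes, 66.0, 77.6 and 76.0 and 166, 178 and 291 CPM (log2 -1.53, SE 0.193, edgeR adjusted p = 9.21e-05). Fetal replicate 3 was the highest library for both. Without it 4 rose and 20 fell among the replication genes, and 0 rose and 23 fell among the mitosis genes, with medians of -0.34 and -0.74. Mki67, the proliferation marker, fell by 0.56 on the log2 scale with all libraries (adjusted p = 0.0338), by 0.23 without fetal replicate 3, and had a value of 0.18 when a trend with gene length was removed. Its call was also lost without adult replicate 1 (adjusted p = 0.103), without adult replicate 2 (adjusted p = 0.0755) and with the 6 libraries fitted alone (adjusted p = 0.0714).

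The promoters of division genes are shown because these lists moved together and their known regulators read short motifs. Windows of 300 bases, from 250 before to 50 after the start of the gene, were taken from RefSeq (build GRCr8), and both strands were searched. The E2F motif TTTNGCGC was found in 12 of 27 replication genes matched to a RefSeq promoter (44.4%), against 1.28% of all 33469 promoters and 2.37% of the 8255 tested genes that could be matched. Genes called lower held it in 7 of 16 cases and uncalled genes in 5 of 11. The motif TTTGAA, the core of the cell cycle homology region used at mitotic promoters, was found in 19 of 25 mitosis genes (76.0%), against 18.35% of all promoters and 11.3% of matched tested genes. It was present in 15 of 19 called and 4 of 6 uncalled members. The windows below belong to the 2 called members of each list with the motif and the largest fold change. A match describes letters and is no evidence of binding. Capitals mark the matches, and no match of one motif overlaps one of the other.
Tyms (chr9:120776034-120776333, minus strand): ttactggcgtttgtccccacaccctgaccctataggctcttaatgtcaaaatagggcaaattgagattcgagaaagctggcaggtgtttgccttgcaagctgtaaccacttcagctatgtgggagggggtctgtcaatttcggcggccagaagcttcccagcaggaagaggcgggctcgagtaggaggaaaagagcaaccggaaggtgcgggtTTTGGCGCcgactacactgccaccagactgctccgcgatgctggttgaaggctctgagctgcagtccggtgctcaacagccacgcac
Pola1 (chrX:62342306-62342605, minus strand): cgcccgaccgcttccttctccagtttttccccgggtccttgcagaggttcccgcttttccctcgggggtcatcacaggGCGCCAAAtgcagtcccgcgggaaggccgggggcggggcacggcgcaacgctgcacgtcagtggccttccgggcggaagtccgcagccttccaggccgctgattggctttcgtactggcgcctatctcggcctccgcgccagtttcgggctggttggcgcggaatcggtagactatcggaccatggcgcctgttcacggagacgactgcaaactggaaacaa
Cenpf (chr13:103760837-103761136, minus strand): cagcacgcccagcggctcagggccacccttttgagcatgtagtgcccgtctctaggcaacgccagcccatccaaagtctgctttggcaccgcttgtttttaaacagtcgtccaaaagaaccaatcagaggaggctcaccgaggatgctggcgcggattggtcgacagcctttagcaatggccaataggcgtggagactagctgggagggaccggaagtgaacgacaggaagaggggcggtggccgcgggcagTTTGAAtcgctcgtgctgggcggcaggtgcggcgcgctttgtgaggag
Kif23 (chr8:71320535-71320834, minus strand): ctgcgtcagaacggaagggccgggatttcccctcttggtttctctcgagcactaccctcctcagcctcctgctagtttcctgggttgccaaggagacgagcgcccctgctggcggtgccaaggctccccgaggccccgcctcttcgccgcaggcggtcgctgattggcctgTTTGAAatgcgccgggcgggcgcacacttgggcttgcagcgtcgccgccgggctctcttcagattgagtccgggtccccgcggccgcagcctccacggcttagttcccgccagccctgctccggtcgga

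Regulators of the cell cycle did not follow one direction. In a list of kinase inhibitors, retinoblastoma and p53 pathway genes and D and G cyclins, 10 of 22 tested genes rose and 5 fell (median log2 0.31). Ccnd2 (cyclin D2) had 31.2, 36.0 and 43.8 CPM in adult and 197, 209 and 142 CPM in fetal libraries (log2 -2.30, SE 0.165, edgeR adjusted p = 2.08e-06), and Ccnd1 (cyclin D1) 402, 405 and 431 and 198, 198 and 258 CPM (log2 0.92, SE 0.102, edgeR adjusted p = 3.23e-05). The pair thus changed in opposite directions, each without overlap. The inhibitor Cdkn2c rose by 1.38 and Cdkn2b, another inhibitor, fell by 2.30. Ccng1 (cyclin G1), the most abundant member, had 258, 275 and 274 against 616, 640.3 and 503 CPM (log2 -1.12, SE 0.0926, edgeR adjusted p = 4.65e-06). Cdkn1a (p21) had a log2 fold change of 0.28 (adjusted p = 0.202).

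The imprinted growth genes, expressed from 1 parental copy and active in the fetus, had one of the lowest list medians. In this list, 1 of 20 tested genes rose and 15 fell (median log2 -3.64, or -2.87 with the 3 genes at the floor set to their bounds). Meg3, listed under the older name RGD1566401, had no adult count and was at least 121-fold lower (24.1, 33.5 and 23.7 CPM in the fetal libraries). Mest, a paternally expressed gene (chromosome 4, 58052786 to 58063231), had 1.07, 0.0722 and 0.449 CPM in adult and 22.6, 22.2 and 35 CPM in fetal libraries (log2 -5.65, SE 0.446, edgeR adjusted p = 4.03e-06), and Peg3, a zinc finger gene, 14.2, 14.01 and 11.2 and 166, 174 and 216 CPM (log2 -3.82, SE 0.134, edgeR adjusted p = 2.55e-08). Igf2r, the receptor that clears IGF2, fell by 1.28. Dio3, an imprinted enzyme that inactivates thyroid hormone, was the exception and rose from 0, 0.353 and 1.59 to 23.2, 21.1 and 18.0 CPM (log2 5.01, SE 0.675, edgeR adjusted p = 0.000151). Ndn and Sgce, with log2 fold changes of 0.04 and 0.07, did not pass the test.

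The ligands of the IGF system changed in opposite directions. Igf2, the fetal ligand, stood at 2.68, 2.31 and 2.69 CPM in adult and 286, 279 and 554 CPM in fetal libraries (log2 -7.18, SE 0.335, edgeR adjusted p = 2.44e-07), and Igf1, the postnatal ligand, at 415, 240.1 and 209.6 and 28.1, 32.1 and 16.9 CPM (log2 3.48, SE 0.309, edgeR adjusted p = 1.14e-05). Both differences separated the ages completely. The receptor Igf1r fell by 1.69. Among the binding proteins Igfbp3 rose from 53.8, 53.9 and 198 to 2623, 1638 and 1030 CPM (log2 4.11, SE 0.584, edgeR adjusted p = 0.000223) and Igfbp7 by 2.08, while Igfbp5 fell by 7.08 and Igfbp2 by 3.74. Over the list, 4 of 17 tested genes rose and 9 fell (median log2 -1.01).

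RNA-binding and chromatin genes of fetal cells fell in 9 of 11 tested cases and rose in 1 (median log2 -1.50). Igf2bp1, an RNA-binding protein of fetal tissue (chromosome 10, 83780203 to 83822996), was at least 168-fold lower in adult cells, with 28.7, 29.3 and 54.8 CPM in the fetal libraries, and the chromatin protein Hmga2 at least 107-fold lower (15.7, 13.7 and 42.5 CPM). Fetal replicate 3 was the highest for both. The maintenance DNA methyltransferase Dnmt1 had 70.2, 89.3 and 96.1 against 174, 167 and 189 CPM (log2 -1.05, SE 0.108, edgeR adjusted p = 2.03e-05). The 2 forms of the Polycomb methyltransferase changed in opposite directions: Ezh1 rose by 1.51 and Ezh2 fell by 1.08.

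Signalling genes of development were mixed, list by list. For TGF-beta and BMP signalling, 17 of 42 tested genes rose and 19 fell (median log2 -0.07). Among ligands, Bmp7 had no adult count and was at least 125-fold lower (24.9, 27.2 and 31.8 CPM in the fetal libraries), Tgfb2 fell by 1.69 and Tgfb1 rose by 1.92, with 289.5, 299.6 and 301 against 79.8, 71.7 and 84.2 CPM. The activin subunit Inhbb rose from 2.38, 1.81 and 5.95 to 77.0, 46.7 and 37.4 CPM (log2 4.01, SE 0.430, edgeR adjusted p = 3.84e-05) and Acvrl1, a BMP receptor, by 3.28. The target genes Id1, Id2 and Id3 rose by 1.35, 2.498 and 1.48. The secreted antagonist Fstl1 was the most abundant member and fell from 3346, 3353 and 1891 to 997, 1257 and 1360 CPM (log2 -1.25, SE 0.210, edgeR adjusted p = 0.000514).

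Wnt pathway genes fell more often than they rose: 5 of 34 tested genes rose and 18 fell (median log2 -1.03). The counts were 7 and 19 without fetal replicate 3 (median -0.78). The secreted antagonist Dkk2 was at least 61.5-fold lower in adult cells (9.18, 9.56 and 22.5 CPM in the fetal libraries), and the ligand Wnt5a had 8.72, 8.95 and 8.76 against 47.9, 47.2 and 108 CPM (log2 -2.94, SE 0.322, edgeR adjusted p = 4.13e-05). Wnt4, another ligand, rose from 1.51, 1.28 and 3.61 to 19.6, 12.2 and 9.36 CPM (log2 2.69, SE 0.405, edgeR adjusted p = 0.000253). The signal transducer Ctnnb1 (beta-catenin) stood at 281, 269 and 296 against 599, 577 and 523 CPM (log2 -1.01, SE 0.0746, edgeR adjusted p = 2.41e-06). For hedgehog and Notch signalling, 4 of 19 tested genes rose and 8 fell (median log2 -0.53), and 3 rose and 10 fell without fetal replicate 3. The median of this list was -0.03 with the trend on gene length removed. The Notch target Hey2 had 1.3, 2.09 and 1.95 against 24.9, 23.5 and 6.85 CPM (log2 -3.36, SE 0.496, edgeR adjusted p = 0.000282), with fetal replicate 3 the lowest of its age, and Lfng, a modifier of Notch receptors, rose by 1.51. Notch2, the most abundant member, fell by 0.20 on the log2 scale (adjusted p = 0.0112). It was 0.57, in the other direction, when the trend with gene length was removed.

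For receptor tyrosine kinases and their ligands, 14 of 45 tested genes rose and 16 fell (median log2 0.08), near the shares of all genes. Tie1, a receptor known from blood vessels, stood at 69.9, 72.5 and 68.6 CPM in adult and 0.486, 0.353 and 0.425 CPM in fetal libraries (log2 7.37, SE 0.145, edgeR adjusted p = 8.90e-10). The endothelial markers, of which it is one, summed to 1050 to 1209 CPM in adult and 172 to 260.1 CPM in fetal libraries, and the part of endothelial cells was not tested. Its partner receptor Tek had 6.58, 6.35 and 2.99 and 3.995, 5.201 and 3.88 CPM and did not pass the test (adjusted p = 0.399). Pdgfrb rose by 0.73 (adjusted p = 0.0464), a call lost without any 1 of the adult libraries (adjusted p = 0.0793 to 0.0942). Pdgfc, a ligand of PDGF receptors, fell by 3.98. For retinoid genes and nuclear receptors, 13 of 29 tested genes rose and 5 fell (median log2 0.34). Aldh1a1, an enzyme that makes retinoic acid, stood at 5.36, 5.34 and 7.56 against 1.51, 1.15 and 1.06 CPM (log2 2.29, SE 0.243, edgeR adjusted p = 2.44e-05). Nr2f1, an orphan receptor of development, fell by 1.31.

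Immune genes had the highest list medians. Of MHC and antigen presentation genes, 20 of 22 tested genes rose and 0 fell (median log2 3.73), of complement genes 19 of 23 tested genes rose and 2 fell (median log2 5.27), of chemokines and their receptors 23 of 24 tested genes rose and 0 fell (median log2 5.95, or 5.54 with the 7 genes at the floor set to their bounds), and of cytokines, their receptors and inflammasome genes 47 of 50 tested genes rose and 0 fell (median log2 2.73). Over all tested genes 34.9% rose and the median was -0.01.  The counts differed by at most 1 without fetal replicate 3. The macrophage markers rose with these lists, from 20.6, 19 and 87.9 CPM in fetal replicates 1, 2 and 3 to 5271, 6375 and 7277 CPM in the adult libraries, and their part in the increases was not tested.

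B2m, the light chain of MHC class I molecules that nearly all cells carry (chromosome 3, 114087287 to 114093311), had 2461, 2051 and 1904 CPM in the adult and 337, 325 and 328 CPM in the fetal libraries (log2 2.70, SE 0.102, edgeR adjusted p = 4.04e-08). RT1-Da, a rat class II chain of antigen-presenting cells, was at least 101-fold higher (13.4, 16.8 and 15.6 CPM). RT1 genes are near-identical copies, and the split of reads among them is uncertain. Of complement genes, C1r, the partner protease of C1s, stood at 3657, 2097 and 1622 against 105, 103 and 91.3 CPM (log2 4.62, SE 0.287, edgeR adjusted p = 1.03e-06), and Serping1, their inhibitor, at 2476, 1263 and 873 against 3.94, 3.39 and 4.57 CPM (log2 8.60, SE 0.451, edgeR adjusted p = 4.72e-07). C1s, C1r and Serping1 were all highest in adult replicate 1. The same held for 188 of the 226 genes with at least 10 CPM in adult cells whose adult libraries spread at least 2-fold. The part of macrophages in these increases was not tested. Cfd, complement factor D, was at least 47.0-fold higher in adult cells (9.33, 7.58 and 4.42 CPM). Clu (clusterin) fell from 1043, 1035 and 1287 to 481, 212 and 126 CPM (log2 -2.04, SE 0.409, edgeR adjusted p = 0.00180).

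Among chemokines, Ccl7 rose from 1.89, 1.45 and 6.59 to 1813, 1415 and 1187 CPM (log2 8.81, SE 0.539, edgeR adjusted p = 1.19e-06). Cxcl12, a stromal chemokine with a long transcript and the highest mean CPM of the list, had 2283, 865 and 584 CPM in adult and 459, 450.4 and 171 CPM in fetal libraries (log2 1.79, SE 0.521, edgeR adjusted p = 0.0131). Its adjusted p was 0.0755 without fetal replicate 3. Il1a, an inflammatory cytokine, had counts in fetal replicate 3 only (0, 0 and 0.797 CPM) and spread in the adult libraries (47.0, 13.6 and 9.58 CPM). Osm, a cytokine of the IL-6 family, was at least 178-fold higher in the adult cells, and Il6st, the receptor chain that family shares, rose by 1.40 (1933, 1284 and 1086 against 618, 646 and 363 CPM).

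Interferon response genes rose in 35 of 37 tested cases and fell in none (median log2 2.58). The macrophage markers moved with them too (19 to 87.9 CPM in fetal and 5271 to 7277 CPM in adult libraries), and their part was not tested. Ifitm3, a membrane protein that blocks viral entry, stood at 1100, 808 and 736 CPM in adult and 165, 168 and 108 CPM in fetal libraries (log2 2.58, SE 0.202, edgeR adjusted p = 3.88e-06), and Mx1, an antiviral GTPase, at 11.7, 9.82 and 10.8 and 0.108, 0.220 and 0 CPM (log2 6.46, SE 0.477, edgeR adjusted p = 2.35e-06). Eif2ak2 and Ifih1, sensors of double-stranded RNA, had log2 fold changes of 0.02 and 0.42 and did not pass the test. The motif GAAANNGAA, the repeat within interferon-stimulated response elements, was found in 17 of 27 members matched to a RefSeq promoter (63.0%), against 9.71% of all promoters and 7.05% of matched tested genes. Members with the motif had a median log2 fold change of 2.58 and members without it 3.01. The windows of the 2 members with the motif and the largest fold change are shown, with matches on either strand in capitals. In Bst2 a pair of matches overlaps.
Bst2 (chr16:18254918-18255217, minus strand): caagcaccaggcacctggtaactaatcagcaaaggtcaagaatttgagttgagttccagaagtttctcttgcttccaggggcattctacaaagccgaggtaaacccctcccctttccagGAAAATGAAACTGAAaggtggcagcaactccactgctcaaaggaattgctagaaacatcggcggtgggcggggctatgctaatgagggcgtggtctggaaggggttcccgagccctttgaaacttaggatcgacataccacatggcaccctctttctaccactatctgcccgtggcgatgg
Gbp2 (chr2:234005477-234005776, plus strand): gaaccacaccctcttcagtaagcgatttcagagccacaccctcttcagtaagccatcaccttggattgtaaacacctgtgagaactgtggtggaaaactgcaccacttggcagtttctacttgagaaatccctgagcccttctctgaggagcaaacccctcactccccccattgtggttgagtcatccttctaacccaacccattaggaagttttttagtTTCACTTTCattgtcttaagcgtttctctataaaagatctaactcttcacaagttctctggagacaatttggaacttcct
Bst2, which tethers viruses to the cell surface, stood at 92.3, 72.7 and 80.9 CPM in adult and 1.24, 1.37 and 4.51 CPM in fetal libraries (log2 5.12, SE 0.397, edgeR adjusted p = 4.99e-06), and Gbp2, a GTPase of host defence, at 120.2, 85.6 and 73.0 and 3.56, 3.31 and 8.29 CPM (log2 4.21, SE 0.344, edgeR adjusted p = 6.88e-06).

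Immediate early genes, transcription factors induced within minutes by growth factors or stress, rose in 19 of 21 cases and fell in 1 (median log2 1.72). Junb had 1438, 728 and 628 CPM in adult and 146, 109 and 109 CPM in fetal libraries (log2 2.94, SE 0.309, edgeR adjusted p = 3.38e-05), and Nr4a1 533, 144 and 155 and 12.9, 14.5 and 9.29 CPM (log2 4.50, SE 0.535, edgeR adjusted p = 7.22e-05). Adult replicate 1 was far above its partners for both, and for 10 of the 17 members with at least 10 CPM in adult cells the adult libraries spread at least 2-fold with replicate 1 the highest. Fosb was the least even, with 528, 86.4 and 79.8 against 23.9, 44.2 and 0.478 CPM. It rose by 3.33 (adjusted p = 0.0240), and the adjusted p was 0.0582 without fetal replicate 3, 0.114 without adult replicate 1, 0.0653 without fetal replicate 1 and 0.0627 with the 6 libraries fitted alone. Fosl1 fell by 1.11, and by 0.56 without that replicate.

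**Figure D4:**
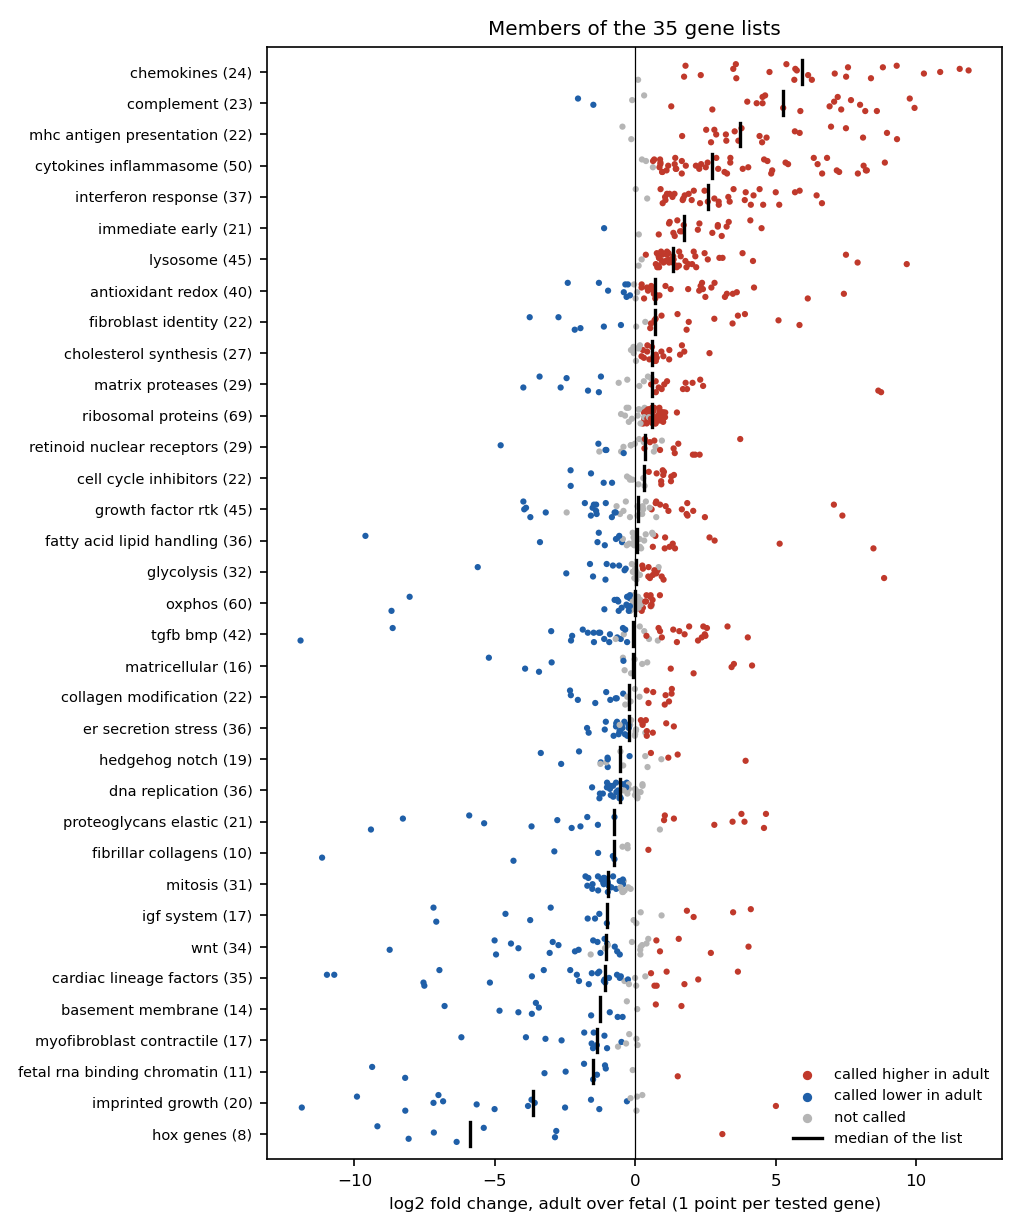
Log2 fold change of adult over fetal cultures for each tested member of 35 gene lists, ordered by the list median (black bar), with the number of tested genes in brackets. Red points rose, blue points fell and grey points did not pass the test. The immune lists lie at the top, from chemokines (median 5.95) down to interferon response (2.58), and the Hox and imprinted genes at the bottom (-5.88 and -3.64, or -3.67 and -2.87 where genes at the floor take their bounds).

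Lysosomal genes rose almost throughout, 43 of 45 tested genes, with no gene fallen (median log2 1.35). The protease cathepsin D (Ctsd, chromosome 1, 215541570 to 215553446) stood at 5256, 5176 and 5133 CPM in the adult and 410.3, 408 and 285 CPM in the fetal libraries (log2 3.82, SE 0.146, edgeR adjusted p = 4.29e-08), and cathepsin B (Ctsb) at 4198, 4420 and 4344 and 531, 539.5 and 556 CPM (log2 2.99, SE 0.0737, edgeR adjusted p = 3.43e-09). Atp6v0d2, a proton pump subunit of osteoclasts and macrophages, was at least 128-fold higher. Smpd1 and Scarb2 had log2 fold changes of 0.12 and 0.23 and did not pass the test. The macrophage marker Cd68, a lysosomal protein, is in this list (341, 388 and 396 against 0.702, 0.793 and 3.24 CPM), and the part of macrophages (marker sums of 5271 to 7277 against 19 to 87.9 CPM) was not tested.

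Antioxidant and redox genes rose in 29 of 40 cases and fell in 8 (median log2 0.72). The iron store ferritin heavy chain (Fth1) had 1707, 1606 and 1370 CPM in adult and 315, 296 and 291 CPM in fetal libraries (log2 2.38, SE 0.0932, edgeR adjusted p = 4.87e-08), and Sod2, a mitochondrial superoxide dismutase, 1007, 702 and 531 and 70.9, 69.2 and 61.5 CPM (log2 3.47, SE 0.211, edgeR adjusted p = 8.52e-07). The NADPH oxidases moved in opposite directions: Cybb, the phagocyte form, rose from 0.162, 0.132 and 2.87 to 159, 180.1 and 187 CPM (log2 7.43, SE 0.628, edgeR adjusted p = 8.53e-06), and Nox4, the form of fibroblasts and other non-immune cells, fell from 20.5, 22.4 and 12.8 to 3.29, 3.39 and 3.82 CPM (log2 -2.40, SE 0.212, edgeR adjusted p = 7.11e-06).

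Genes of energy metabolism showed little common movement. Of glycolysis genes, 12 of 32 tested genes rose and 10 fell (median log2 0.04), near the shares of all genes. Hk3, a hexokinase of myeloid cells, rose from 0.162, 0.0441 and 1.49 to 280.4, 253 and 225 CPM, most of the fetal signal lying in replicate 3, and Slc2a4, the insulin-responsive glucose transporter of muscle and fat, fell from 16.9, 15.7 and 8.34 to 0.306, 0.505 and 0 CPM. Aldoa, the most abundant member, rose by 1.01. Of fatty acid and lipid genes, 11 of 36 tested genes rose and 9 fell (median log2 0.08), with 13 risen and 13 fallen without fetal replicate 3. Fabp4, a fatty acid carrier of macrophages and adipocytes, had 79.7, 101 and 114 CPM in adult cells and fetal counts only in replicate 3 (0, 0 and 0.850 CPM). The adipocyte markers, of which it is one, summed to 94.1 to 124 CPM in adult and 3.98 to 4.59 CPM in fetal libraries, 2 of 3 tested members rose, and Adipoq and Ucp1 had no count in any of the 6 libraries. The part of fat cells was not tested. Ppargc1a, a coactivator of mitochondrial genes, had no adult count and was at least 25.2-fold lower. Scd2, a desaturase, did not pass the test (-0.06, adjusted p = 0.581), and was 0.30 with the length trend removed.

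For oxidative phosphorylation, 15 of 60 tested genes rose and 18 fell (median log2 -0.02), and 12 rose and 22 fell without fetal replicate 3. Cox6a2, the muscle form of a cytochrome oxidase subunit, fell from 130.3, 128 and 98.4 to 0.306, 0.361 and 0.674 CPM (log2 -8.03, SE 0.207, edgeR adjusted p = 4.05e-09), Atp5b, the catalytic subunit of ATP synthase, from 2196, 2216 and 1993 to 1286, 1335 and 1479 CPM (log2 -0.64, SE 0.0831, edgeR adjusted p = 8.99e-05), and Cox5a rose by 0.88. Of cytosolic ribosomal protein genes, 54 of 69 tested genes rose and 0 fell (median log2 0.58), with small sizes. Rplp0, the most abundant, stood at 2813, 2719 and 3067 against 2096, 1838 and 1945 CPM (log2 0.55, SE 0.0845, edgeR adjusted p = 0.000287). Rpl30 had the largest increase (1.48, from 9.93, 8.86 and 21.5 to 34.96, 36.6 and 40.6 CPM). Ribosomal protein genes have many near-identical copies, so their counts are uncertain. Both counts moved with a correction for gene length, and so did the medians of other lists. Among the shortest of 3 equal classes of tested genes (exon length up to 1701 bases) there were 1687 risen and 861 fallen genes (median 0.24), and among the longest 948 risen and 1886 fallen (median -0.31). With that trend removed, 2 oxidative phosphorylation genes rose and 46 fell, and 32 ribosomal protein genes rose and 1 fell. The cause of the length trend was not tested.

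Cholesterol synthesis genes rose in 20 of 27 cases and fell in none, by small amounts (median log2 0.60). The most abundant member, Fdps, rose by 0.31 (adjusted p = 0.00462), a call lost with library size as the scaling and with the length trend removed. Of genes for secretion and stress in the endoplasmic reticulum, 9 of 36 tested genes rose and 18 fell (median log2 -0.24). Creb3l2, a transcription factor for secretory capacity, had 53.5, 50.7 and 56.9 against 184, 192 and 154 CPM (log2 -1.72, SE 0.0948, edgeR adjusted p = 3.73e-07), Sdf2l1 rose by 1.37, and P4hb, the most abundant member, had a log2 fold change of -0.01 (adjusted p = 0.916).

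Some abundant genes did not pass the test. Of 3350 uncalled genes, 379 had a 95% interval of the log2 fold change within 0.25 of 0. The most abundant of them was Actb, the cytoskeletal actin, with 5749, 6111 and 6202 CPM in adult and 5893, 5448 and 6053 CPM in fetal libraries. Myl12a, a regulatory myosin light chain, followed with 853, 913 and 967 and 959.8, 949 and 935 CPM. Lasp1, Map4 and Acly had log2 fold changes of 0.10, 0.04 and 0.11. For Actb, Myl12a, Lasp1 and Map4 the ages overlapped, and for Acly every adult library lay above the fetal ones by a small margin. With the length trend removed, Myl12a, Lasp1, Map4 and Acly were called, at -0.35 (adjusted p = 0.000958), 0.27 (adjusted p = 0.00409), 0.45 (adjusted p = 0.000825) and 0.38 (adjusted p = 0.000248), and Actb was called without adult replicate 1 and fetal replicate 3 (0.12, adjusted p = 0.0236).

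Leaving out fetal replicate 3 moved the log2 fold change by at least 1 for 263 of the 11337 genes and by at least 0.5 for 665. It ended 240 calls and added 745. Among the genes whose log2 fold change rose most were Fabp4, Il1a, Mmp12 and Pf4. Pf4, a chemokine of platelets and macrophages, had 0, 0.0441 and 2.55 CPM in fetal replicates 1, 2 and 3 and 73.7, 86.4 and 74.7 CPM in the adult libraries. In these genes, replicate 3 held 0.80 to 11.7 CPM and its partners at most 0.162 CPM. The 5 genes whose value fell most were Eln and Fosb, described above, and Akr1c14, Siglec1 and Cd8a, which had no count in replicate 3 and up to 0.573 CPM in its partners. For Akr1c14, a steroid-converting enzyme, the adult libraries held 355, 262 and 238 CPM, and the log2 fold change was 9.65 with and 9.10 without that replicate. Each of the genes named here kept its direction, and of them Fosb alone lost its call.

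**Figure D5:**
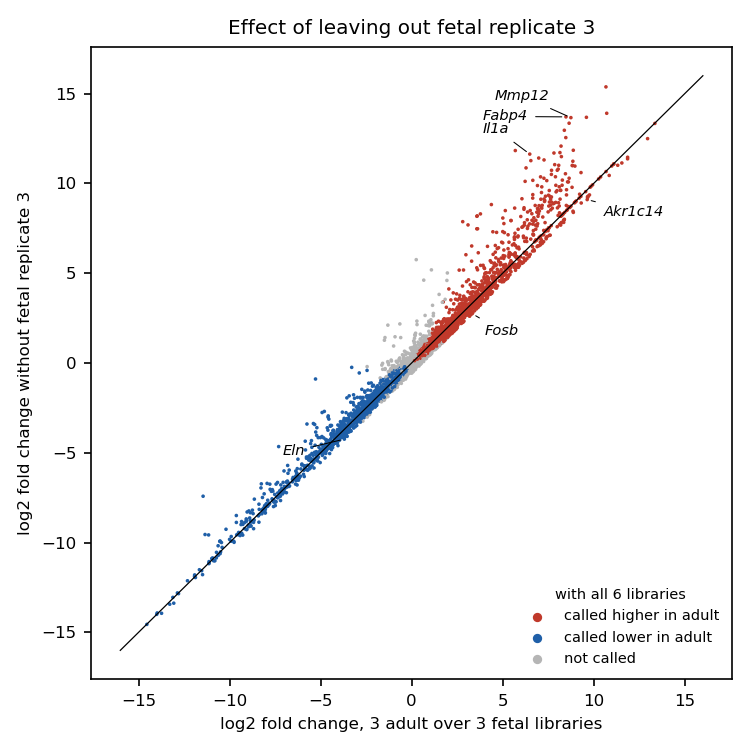
Log2 fold change of adult over fetal cultures with all 6 libraries (horizontal axis) against the value without fetal replicate 3 (vertical axis) for each gene tested in both. Points on the line did not move. Genes above the line at the upper right, such as Mmp12, Fabp4 and Il1a, had nearly all of their fetal counts in replicate 3. Fabp4 and Il1a had no fetal count without it, so their values there are set by the prior count. Mmp12 had 3 and 2 counts in fetal replicates 1 and 2.

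Some calls rested on adult libraries that differed among themselves. Among called genes with a count in every adult library and at least 10 CPM in 1 age, the 5 whose adult libraries spread most were Mest, Nrk, Trim63, Slc25a23 and Myrip. Trim63, a muscle ubiquitin ligase, had 0.0765, 0.217 and 0.823 CPM in adult and 15.1, 16.4 and 18.5 CPM in fetal libraries (log2 -5.46, SE 0.409, edgeR adjusted p = 2.56e-06). Nrk, a kinase of developing tissue, had 0.0765, 0.217 and 0.898 and 14.4, 15.9 and 36.1 CPM (log2 -5.77, SE 0.615, edgeR adjusted p = 3.35e-05). Myrip, which links myosin to organelles, had 0.230, 1.23 and 2.10 and 7.83, 8.73 and 19.5 CPM (log2 -3.33, SE 0.572, edgeR adjusted p = 0.000654) and Slc25a23, a mitochondrial carrier, 0.0765, 0.650 and 0.823 and 12.6, 13.3 and 6.37 CPM (log2 -4.36, SE 0.494, edgeR adjusted p = 3.84e-05). In each the lowest fetal library exceeded the highest adult library, and the adult values rest on few counts. Among genes abundant in adult cells the spread followed 1 library: of 8152 genes with at least 10 CPM there, 226 spread at least 2-fold, and adult replicate 1 was the highest for 188 of them. These included 10 of 19 complement genes, 9 of them highest in replicate 1, and 7 of 17 chemokine genes, 6 of 15 proteoglycan and elastic fibre genes and 5 of 18 fibroblast identity genes, all highest in replicate 1.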

How the data were processed

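RNA sequencing of 9 rat cardiac fibroblast cultures (3 fetal, 3 neonatal, 3 adult) gave 1 table of 17337 genes. Its values are whole-number counts of reads per gene that the authors deposited, made with featureCounts 1.6.3 and an rn6 annotation, per the file headers, which show no strand or multi-mapping option. Per the submitters' processing notes, FastQC, Trimmomatic 0.39, STAR 2.5.2b and DESeq2 were also used, with no order or settings given. The exon length beside each gene is also as deposited. The test was edgeR's (4.0.16, under R 4.3.3), by quasi-likelihood fits to all 9 libraries, age as the only term, TMM scaling and the default expression filter, for adult minus fetal. P-values were adjusted over all tested genes by the Benjamini-Hochberg method, with a threshold of 0.05. Fold changes were fitted with edgeR's default prior count. A prior count of 2 was used for log2 CPM values, as in the distances, the principal components and the comparison of single libraries. The test was checked on simulated data. Unlike these data, the simulation gave every gene the same dispersion (spread beyond counting error) and held no outlying library. It therefore does not show how the test behaves with a library such as fetal replicate 3. Libraries held 13392825 to 22141173 assigned counts, and bounds from the floor of 3 counts cover counting error only. Same-numbered adult and fetal libraries were not paired. Alternatives were other scalings, filters and estimators, a replicate block, DESeq2 1.42.0, a fit with a trend on exon length removed, and leaving out libraries. That trend was fitted in each library, to its log2 CPM less the mean over the 9 libraries.

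Named genes were taken by rule: the 10 genes in each direction with the largest called difference without overlap and at least 20 CPM in the higher age; the 6 in each direction with at least 10 CPM at both ages; in each gene list the largest called change each way and the most abundant member; the 5 each way that moved most without fetal replicate 3; the 5 most abundant uncalled genes with a 95% interval within 0.25 of 0; and the 5 called genes with the widest adult spread. Some genes that the rule selects are not reported here. Other list members named were chosen after their values were seen. The gene lists, the comparison and the rule were chosen with earlier results of these data known. Promoters were matched by gene symbol to RefSeq (GRCr8), a later build than that of the counts, and no coordinate was converted.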

Additional observations from a re-analysis of the deposited data

How the results depend on the processing

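At the same threshold, the count of called genes ranged from 7124 with the 6 libraries fitted alone to 8941 without adult replicate 1 and fetal replicate 3, a setting added after seeing the data, and was 7508 to 8616 with any 1 library left out, against 7987. It was 8343 with DESeq2 and 6672 at an adjusted p under 0.01. Tested against a log2 fold change of 1, 2648 genes were called, 1405 higher and 1243 lower in adult cells. Scaling by library size only moved the median of all genes from -0.01 to -0.12 and the share of higher calls from 49.5% to 43.4%. With the replicate number as a block, 7801 genes were called and Col1a1 and Col11a2 were not (adjusted p = 0.0534 and 0.0603). Deviations of same-numbered libraries correlated at 0.0507, -0.0254 and 0.0356, so the numbers gave no sign of pairing. Removing the trend with gene length left 7790 calls, 49 of them in the opposite direction. Under it Mki67 was 0.18 (adjusted p = 0.501), Notch2 0.57 (adjusted p = 7.43e-06) and Scd2 0.30 (adjusted p = 0.0243). Gata4 was 0.03 with all libraries, -0.15 to 0.14 with any 1 left out and -0.21 (adjusted p = 0.000707) without adult replicate 1 and fetal replicate 3. The cause was not tested. Of 35 gene lists, 28 kept the direction of the majority of their calls in all 17 alternatives. Collagen modification, fatty acid handling, glycolysis, receptor tyrosine kinases, proteoglycans and TGF-beta signalling did not. The matricellular genes had no majority with all libraries (5 risen and 5 fallen) and had one in 10 of the alternatives.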

Other observations

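The neonatal cultures lay between the 2 ages for most called genes. Of the 3957 genes higher in adult than in fetal cells, the neonatal mean was between the 2 means for 2743 (69.3%), above both for 299 and below both for 915, and it was nearer the fetal mean for 3098. Of the 4030 genes lower in adult cells it was between for 2831 (70.2%), above both for 956 and below both for 243, and nearer the fetal mean for 2498. Nearness was taken as a difference in CPM and not on the log2 scale, which favours the age with the lower mean. The counts of genes nearer the fetal mean are therefore not comparable between the 2 directions. All these counts share the fetal and adult libraries with the comparison itself.

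Genes of chromosome X fell more often than they rose. Of 340 tested genes there, 90 rose and 170 fell in the adult cells (76.5% called, median log2 -0.38), against 34.9% risen and 35.5% fallen over all tested genes. This tilt was not particular to chromosome X: on chromosome 2, 193 of 751 tested genes rose and 336 fell, and on chromosome 18, 89 of 289 rose and 125 fell. Others tilted the opposite way, such as chromosome 1 with 545 risen and 407 fallen. The sex of the animals was not labelled. On chromosome 20, which carries the RT1 complex, 168 of 355 tested genes rose and 102 fell.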
